A study of Homo sapiens with 6 samples.

Results

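The replication-dependent histone genes of MDA-MB-231 cells were examined after vitamin C treatment. Members were the protein-coding genes whose GENCODE symbols are those of the linker histones H1-1 to H1-6 or carry the prefix H2AC, H2BC, H3C or H4C with a number, and they were found in the count files by Ensembl identifier. The annotation held 69 such genes, and 65 of their identifiers were among the 60675 genes of the count files. H2AC18, H2AC19, H3C2 and H3C3 were not analysed here. Of the 65, 36 genes had enough reads to be tested, among 15261 tested genes in all.

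MDA-MB-231 is a triple-negative, mesenchymal human breast cancer line. The vitamin C group consisted of 3 wells given 100 µM vitamin C for 3 days, with the medium changed daily, and the control group of 3 wells of the same line without vitamin C. The study asked whether vitamin C shifts the transcriptome of these cells. Total RNA was depleted of ribosomal RNA and not selected for poly(A) tails, so that mRNAs without a tail could be sequenced. Experiments were run with 3 wells in each group and were repeated, but it is not said whether the sequenced wells came from a single experiment, so the tests rest on well-to-well spread, part of which may be technical.

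Replication-dependent histone genes encode the proteins that package newly made DNA. The core histones H2A, H2B, H3 and H4 form the nucleosome, and the linker histone H1 binds where DNA enters and leaves it. Most of these genes have no introns, lie in clusters, are transcribed mainly in S phase, and yield mRNAs that end in a conserved stem-loop in place of a poly(A) tail. The stem-loop is bound by the stem-loop-binding protein SLBP, and the mRNAs are degraded rapidly when DNA replication stops. In bulk RNA, fewer cells in S phase and less histone mRNA per cell cannot be told apart.

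The stem-loop is shown because it defines the mRNA class and separates H4 from the other types. In the genome sequence (hg38), 67 of the 69 members carried a 16-base stem-loop with at least 6 paired bases and a loop of 4 bases within 100 bases after the stop codon. It began 23 to 68 bases after the stop codon, with a median of 36. The search took only arms of 6 bases that begin with GG, continue in C or T and end in T. Both arms had to pair fully, and the loop had to be free of G. The likeness of the arms is therefore partly set by the search. No sequence of this pattern was found there for H2AC11 and H2AC15, and other stem-loops were not searched for. The most frequent forms are given below 5′ to 3′ as DNA, with the paired arms in capitals and the loop in lower case.
Form shared by 40 members of types H1, H2A, H2B and H3: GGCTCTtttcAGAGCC
Form of 9 members of types H1, H2A, H2B and H3: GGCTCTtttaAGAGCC
Form of 10 H4 genes: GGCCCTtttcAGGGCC
Form of 4 H4 genes: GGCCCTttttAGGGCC
All 15 H4 genes had the arms of the last 2 forms, and all 52 members of the other types with a stem-loop had the arms of the first 2 forms. The remaining 4 forms differed from these in the loop only and occurred in 1 gene each.

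Promoter elements also differed by histone type. The RefSeq table of promoters (GRCh38.p14) held a window of 250 bases before to 50 bases after the start for 64 members, which did not include H2AC12, H3C11, H3C12, H4C1 and H4C3. Searched on both strands, the TATA-type motif TATAAA occurred in 67.2% of these windows (43 of 64), against 11.5% of 35116 windows in the table. The motif CCAAT occurred in 84.4% of members, against 34.6% of all windows. It was in the window of every H1, H2A, H2B and H3 member with an entry and in 3 of 13 H4 windows. The octamer ATTTGCAT, a letter sequence that OCT1 binds, occurred in 39.1% of members, against 1.77% of all windows. It was present in 14 of 18 H2B and 11 of 16 H2A windows and in none of the H1, H3 and H4 windows. None of the 3 motifs contains another. A match is a description of the letters and not a measured binding site.

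The 200 bases before the start are printed for a called gene of types H3, H2B and H4 and for the most abundant H1 gene, with these motifs on either strand in capitals.
H3C1 (chr6:26020251-26020450, plus strand): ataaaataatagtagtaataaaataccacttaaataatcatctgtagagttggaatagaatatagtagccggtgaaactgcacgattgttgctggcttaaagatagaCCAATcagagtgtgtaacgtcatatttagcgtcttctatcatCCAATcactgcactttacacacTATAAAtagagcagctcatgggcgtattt
H2BC3 (chr6:26043714-26043913, minus strand): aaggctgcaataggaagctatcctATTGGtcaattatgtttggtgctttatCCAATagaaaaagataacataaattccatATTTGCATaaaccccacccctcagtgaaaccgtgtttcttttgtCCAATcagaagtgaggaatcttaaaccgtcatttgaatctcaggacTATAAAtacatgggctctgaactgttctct
H4C2 (chr6:26027284-26027483, minus strand): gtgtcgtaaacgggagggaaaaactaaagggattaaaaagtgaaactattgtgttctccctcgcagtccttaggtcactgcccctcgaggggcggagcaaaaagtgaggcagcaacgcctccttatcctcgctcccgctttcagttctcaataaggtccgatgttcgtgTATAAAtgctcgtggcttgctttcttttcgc
H1-2 (chr6:26056471-26056670, minus strand): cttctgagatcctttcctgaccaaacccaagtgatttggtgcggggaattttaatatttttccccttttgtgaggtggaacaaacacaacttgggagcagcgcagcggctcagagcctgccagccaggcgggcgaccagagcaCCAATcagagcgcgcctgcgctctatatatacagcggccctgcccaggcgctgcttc
The stretches of H3C1 and H2BC3 hold both CCAAT and TATAAA, that of H2BC3 also the octamer, that of H4C2 TATAAA alone, and that of H1-2 CCAAT alone.

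Gene counts totalled 13434130 to 19553914 per library in the vitamin C group and 17664345 to 22373591 in the control group. Unmapped read pairs made up 40.7%, 49.5% and 24.7% of vitamin C libraries 1, 2 and 3, against 24.2% to 34.4% of the control libraries. The mesenchymal gene VIM, the intermediate filament vimentin, averaged 1256 ± 64.1 counts per 1000000 (CPM) after vitamin C and 1276 ± 45.3 CPM in controls (SD, n = 3 each). FN1, encoding the matrix protein fibronectin, was the 1 called gene of the 9 tested in that list and was higher, at 557 ± 75.6 CPM after vitamin C and 318 ± 52.2 CPM in controls (log2 fold change 0.81, edgeR adjusted p = 0.00906). DESeq2 called 2 of the list higher, FN1 and SNAI2, and neither tool called any lower. The estrogen receptor gene ESR1 was at 0 counts in all 6 libraries, and 9 of 10 listed markers of mesenchymal and basal breast cells were counted, the exception being KRT5 at 0. Of the 10 luminal epithelial markers, EPCAM and KRT8 were higher after vitamin C, the summed CPM of the list being 619 to 708 after vitamin C and 472 to 597 in controls. Their part in the histone results was not tested. The 5 immune markers summed to 2.00 to 2.61 CPM after vitamin C and to 0.968 to 2.19 CPM in controls.

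Of the 34 tested core histone genes, 15 fell after vitamin C and 19 did not pass the test, and neither did the abundant H1 genes H1-2 and H1-4. A difference between core and linker histone genes was not tested. With edgeR's quasi-likelihood test and Benjamini-Hochberg adjustment over all genes, 15 of the 36 tested members were lower after vitamin C (41.7%), against 3.48% of all 15261 genes tested (531 genes). None was higher, against 3.60% of all genes (549 genes). At an unadjusted p under 0.05, 24 members were lower and 1 was higher, against 13.1% and 14.3% of all genes. DESeq2 called 18 of the 35 members with an adjusted p lower and 0 higher, against 6.36% and 4.35% of all 13472 genes with one. The same 15 genes were lower in both tools, against 3.36% of all genes, and no member was higher in both, against 2.98% of all genes.

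The direction was shared by nearly all members. The log2 fold change was below 0 in 35 of 36 tested members (97.2%), against 47.6% of all genes. Its median was -0.43 over the tested members, which is 0.74 of the control level, and 0.02 over all genes tested. In 24 members (66.7%) every vitamin C library lay below every control library, against 16.6% of all genes tested. The share of higher genes among all calls was 50.8% with TMM factors, 64.6% with upper-quartile factors and 35.0% with an offset for GC content and length, and no member was called higher under any of these 3. The number of members called lower was 8 when vitamin C 1 was left out, 11 when vitamin C 2 was, 19 when vitamin C 3 was, 3 when control 1 was, 5 when control 2 was and 15 when control 3 was. Over all genes the share called lower in these fits was 1.00%, 1.47%, 6.21%, 0.373%, 0.394% and 2.50% in the same order. H3C1 and H4C3 were called in every one of these fits.

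**Figure D1:**
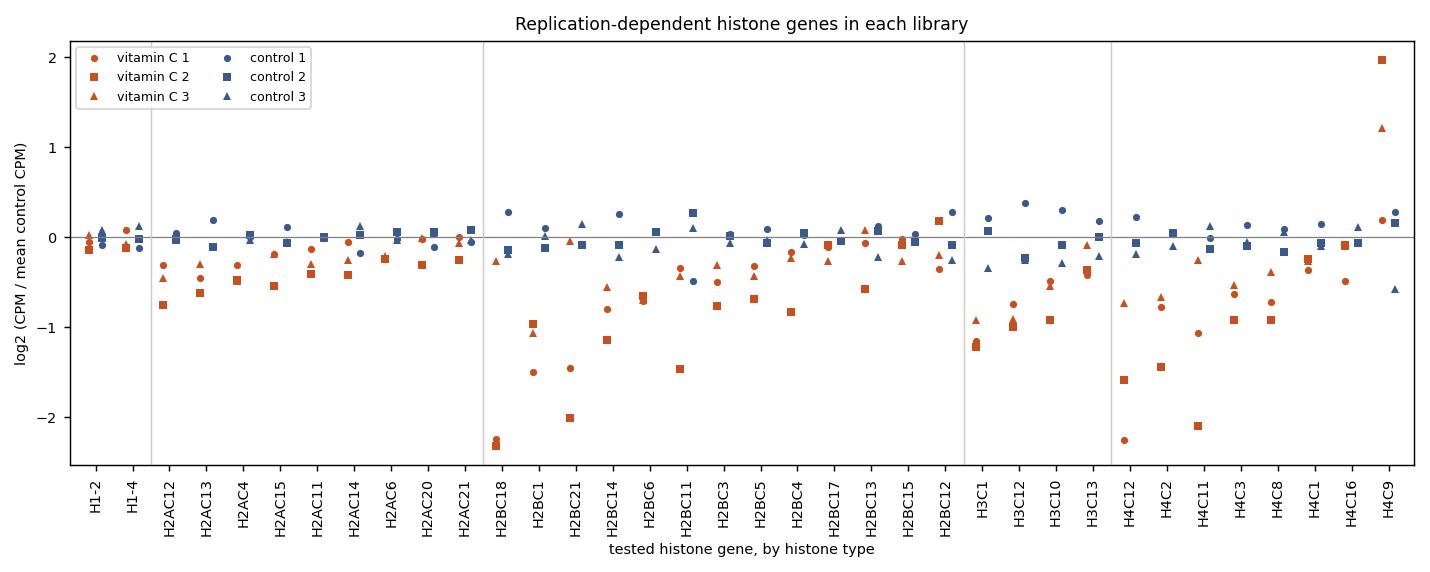
Each tested histone gene (x axis, grouped by type) is shown in each library as the log2 ratio of its CPM to the mean CPM of the control libraries, with vitamin C points left of control points and symbols for library number. The vitamin C points lie mostly below 0, on both sides of it for H1-2, H1-4 and H2BC12 among others and above it for H4C9, and vitamin C 3 stands near the controls for H2BC18 and H2BC21.

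The 3 vitamin C libraries differed in how far the members fell. Set against the mean of the controls, the median log2 ratio of the 36 members was -0.36 in vitamin C 1, -0.64 in vitamin C 2 and -0.27 in vitamin C 3. The share of unmapped read pairs given above was highest in vitamin C 2 and lowest in vitamin C 3, and its part in the result was not tested. Vitamin C 3 was the highest vitamin C library for 17 of the 36 members (47.2%) and for 35.9% of all genes tested. Among genes called lower, it was the highest for 8 of the 15 members (53.3%) and for 44.8% of all 531 genes. Vitamin C 3 was the lowest vitamin C library for 3 of the 36 members (8.33%) and for 34.7% of all genes tested. Among genes called lower, it was the lowest for 1 of the 15 members (6.67%) and for 22.4% of all 531 genes. Whether the members differed from other genes in this was not tested.

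The linker histone genes were the most abundant members. Per kilobase of exon, H1-2 averaged 1116 ± 64.3 CPM after vitamin C and 1162 ± 64.9 CPM in controls, and H1-4 averaged 867 ± 65.0 CPM after vitamin C and 890 ± 76.9 CPM in controls (SD, n = 3 each). In CPM, H1-2 (ENSG00000187837, chr6:26055740-26056470) had 817, 768 and 862 in the vitamin C libraries and 803, 847 and 898 in the control libraries. The groups overlapped, and the log2 fold change was -0.06 ± 0.08 (SE, adjusted p = 0.654). For H1-4 it was -0.04 ± 0.09 (SE, adjusted p = 0.812). H1-1 and the testis linker histone gene H1-6 had at most 4 reads in any library, and H1-3 and H1-5 had none in any.

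Of 9 tested H2A genes, 3 fell, and all 9 had a log2 fold change below 0, with a median of -0.27. H2AC4 (ENSG00000278463, chr6:26033092-26033618) had 63.1, 56.2 and 55.8 CPM after vitamin C and 78.6, 79.3 and 76.5 CPM in controls, a log2 difference of -0.42 ± 0.08 (SE, adjusted p = 0.0145). H2AC12 (ENSG00000274997, chr6:27147106-27147562) had 147, 108 and 134 CPM after vitamin C and 190, 181 and 179 CPM in controls, with -0.50 ± 0.10 (adjusted p = 0.0220). The groups did not overlap for either gene, and the spread was wider after vitamin C for both. H2AC13 (chr6:27808173-27808667) had 31.5, 28.0 and 35.0 CPM after vitamin C and 49.4, 40.0 and 40.0 CPM in controls, with -0.45 ± 0.11 (adjusted p = 0.0385). Of the windows of read length in its exons, 43.9% occur once on the primary chromosomes of the genome, and the others occur there more than once. H2AC20 was the most abundant H2A gene per kilobase (415 ± 47.6 CPM after vitamin C, 445 ± 26.9 CPM in controls). Its levels of 217, 178 and 220 CPM after vitamin C overlapped with 205, 228 and 227 CPM in controls (log2 fold change -0.10 ± 0.09 (SE), adjusted p = 0.50). The other 5 ranged from -0.29 to -0.10 and were not called by edgeR. Of these, DESeq2 called H2AC6 (adjusted p = 0.0296) and H2AC11 (adjusted p = 0.0266) lower.

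Of 13 tested H2B genes, 5 fell, with a median log2 fold change of -0.50 over the 13. H2BC1 (ENSG00000146047, chr6:25726777-25727345), known as a testis H2B gene, was low in these cells, with 1.56, 2.25 and 2.11 CPM after vitamin C and 4.73, 4.04 and 4.43 CPM in controls, a log2 difference of -1.14 ± 0.19 (SE, adjusted p = 0.0113). H2BC14 (chr6:27815022-27815489) had 8.75, 6.88 and 10.4 CPM after vitamin C and 18.2, 14.4 and 13.1 CPM in controls, with -0.79 ± 0.17 (adjusted p = 0.0238). These were the largest falls among the called H2B genes, and the groups did not overlap. H2BC6 (chr6:26172059-26184655) had 9.27, 9.63 and 9.33 CPM after vitamin C and 15.9, 15.8 and 13.9 CPM in controls, with -0.69 ± 0.11 (adjusted p = 0.00978). H2BC3 (chr6:26043227-26043713) had 53.4, 44.3 and 60.9 CPM after vitamin C and 77.4, 76.3 and 72.1 CPM in controls, with -0.50 ± 0.10 (adjusted p = 0.0226). H2BC5 (chr6:26158122-26171349) had 321, 249 and 299 CPM after vitamin C and 427, 386 and 392 CPM in controls, with -0.47 ± 0.10 (adjusted p = 0.0211). Every vitamin C library was below every control library for these 3 genes too.

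Among the uncalled H2B genes, those with the largest differences had vitamin C libraries that did not move together. H2BC18 had 14.4, 13.6 and 56.5 CPM after vitamin C and 82.8, 61.6 and 59.6 CPM in controls (log2 fold change -1.23 ± 0.41 (SE), adjusted p = 0.0834). H2BC21 had 39.7, 27.1 and 106 CPM after vitamin C and 104, 103 and 121 CPM in controls (-0.90 ± 0.35, adjusted p = 0.128). Vitamin C 3 lay close to the controls for both genes, which sit on chromosome 1. Without vitamin C 3 the log2 fold changes were -2.28 (edgeR adjusted p = 8.1e-06) for H2BC18 and -1.71 (adjusted p = 3.43e-05) for H2BC21. That fit was singled out after the values of vitamin C 3 were seen, so these p-values are no support for a fall. With any other library left out, the edgeR adjusted p was 0.109 to 0.252 for H2BC18 and 0.206 to 0.300 for H2BC21. H2BC11, the most abundant H2B gene per kilobase (406 ± 150 CPM after vitamin C, 645 ± 165 CPM in controls), had 532, 245 and 498 CPM after vitamin C and 482, 816 and 725 CPM in controls. Its groups overlapped (-0.67 ± 0.25, adjusted p = 0.113), with vitamin C 2 the lowest and control 1 the lowest of its group. Of the windows of H2BC18, 62.6% occur once on the primary chromosomes.

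**Figure D2:**
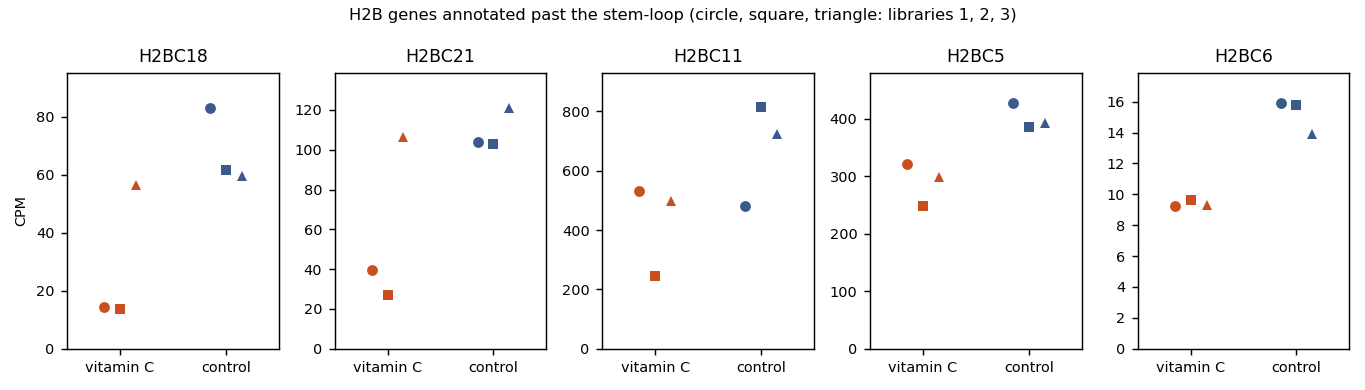
CPM (y axis, from 0) of 5 H2B genes in the vitamin C libraries (left) and the control libraries (right), with circle, square and triangle for libraries 1, 2 and 3. For H2BC18 and H2BC21 vitamin C 3 (56.5 and 106 CPM) lies near the control range, while for H2BC5 and H2BC6 the 3 vitamin C libraries lie together below the controls.

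H3 genes were among the members with the largest falls, and 3 of 4 tested were called, with a median log2 fold change of -0.75 over the 4. H3C1 (ENSG00000275714, chr6:26020451-26020958) had 10.6, 10.1 and 12.5 CPM after vitamin C and 27.4, 24.9 and 18.6 CPM in controls. Its log2 fold change was -1.08 ± 0.15 (SE, adjusted p = 0.00528), the smallest adjusted p of any member. The groups did not overlap, and control 3 was the lowest control. H3C12 (chr6:27890315-27893106) had 3.11, 2.61 and 2.76 CPM after vitamin C and 6.78, 4.44 and 4.38 CPM in controls, with -0.87 ± 0.21 (adjusted p = 0.0356). H3C10 (chr6:27810051-27811300) had 23.4, 17.2 and 22.4 CPM after vitamin C and 40.3, 30.8 and 26.8 CPM in controls, with -0.63 ± 0.15 (adjusted p = 0.0367). For H3C12 and H3C10 control 1 was the highest library. In controls H3C1 was the most abundant counted H3 gene per kilobase, at 46.5 ± 8.85 CPM. Over all libraries H3C13 had the highest mean per kilobase (35.8 ± 4.54 CPM after vitamin C, 43.6 ± 5.89 CPM in controls). H3C13 had 15.3, 15.9 and 19.2 CPM after vitamin C and 23.2, 20.6 and 17.7 CPM in controls. Its groups overlapped (-0.28 ± 0.13, adjusted p = 0.185), and 72.5% of its windows occur once on the primary chromosomes.

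Of 8 tested H4 genes, 4 fell, with a median log2 fold change of -0.67 over the 8. H4C3 (ENSG00000197061, chr6:26103933-26104337), the most abundant H4 gene per kilobase (121 ± 16.6 CPM after vitamin C, 195 ± 17.7 CPM in controls), had 51.1, 41.7 and 54.7 CPM after vitamin C and 87.2, 73.8 and 76.3 CPM in controls. Its log2 fold change was -0.68 ± 0.11 (SE, adjusted p = 0.00909). H4C2 (chr6:26026896-26027283) had 27.8, 17.5 and 30.1 CPM after vitamin C and 48.9, 49.3 and 44.7 CPM in controls, with -0.91 ± 0.15 (adjusted p = 0.0113). In both genes the groups did not overlap and vitamin C 2 was the lowest library. H4C8 (chr6:26277609-26285638) had 53.3, 46.4 and 67.3 CPM after vitamin C and 93.8, 78.4 and 91.6 CPM in controls, with -0.65 ± 0.12 (adjusted p = 0.0171). H4C12 (chr6:27831174-27831560) had 0.593, 0.942 and 1.71 CPM after vitamin C and 3.30, 2.71 and 2.49 CPM in controls, with -1.30 ± 0.31 (adjusted p = 0.0333). Of its windows 9.51% occur once on the primary chromosomes. H4C9 was the single member with a positive log2 fold change (1.29 ± 0.43, adjusted p = 0.0832), at 0.593, 2.03 and 1.20 CPM after vitamin C and 0.626, 0.577 and 0.348 CPM in controls, and its groups overlapped.

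**Figure D3:**
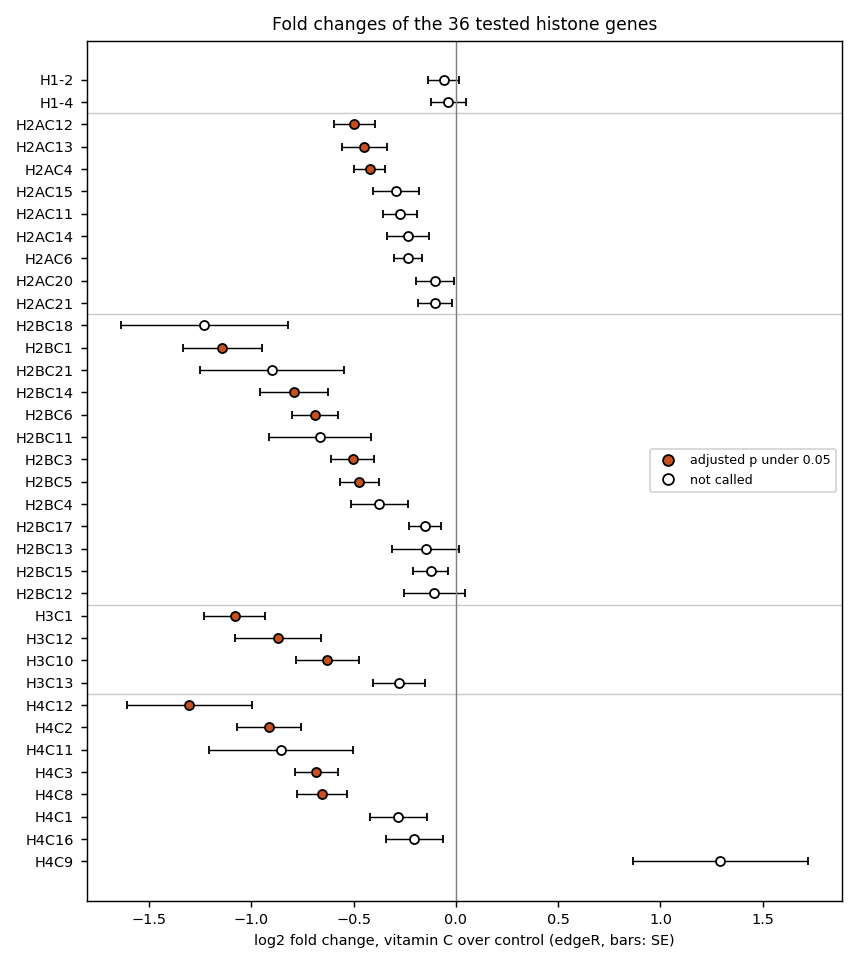
Log2 fold change, vitamin C against control (x axis), is plotted for each of the 36 tested histone genes (y axis, by type), with bars for the SE from edgeR. Filled points mark the 15 genes with an adjusted p under 0.05. H1-2 and H1-4 lie near 0 and the filled points run from -1.30 for H4C12 to -0.42 for H2AC4.

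Summed over the counted genes of a type, the core histones were lower after vitamin C and H1 overlapped. These sums are given as values without a test. H4 summed to 147, 124.5 and 172 CPM after vitamin C and to 253, 223 and 235 CPM in controls, a ratio of the means of 0.624. H3 summed to 52.4, 45.9 and 56.9 CPM after vitamin C and to 97.7, 80.7 and 67.5 CPM in controls, a ratio of 0.631. In both types every vitamin C library was below every control library. H2B summed to 1363, 1009 and 1418 CPM after vitamin C and to 1685, 1903 and 1815 CPM in controls (ratio 0.701). H2A summed to 992, 821 and 939 CPM after vitamin C and to 1078, 1117 and 1109 CPM in controls (ratio 0.833). H1 summed to 1558, 1410 and 1526 CPM after vitamin C and to 1449, 1538 and 1663 CPM in controls (ratio 0.967). H1 genes made up 37.1% to 41.3% of the members' summed CPM after vitamin C and 31.6% to 34.0% in controls. All members together summed to 3878 ± 405 CPM after vitamin C and 4771 ± 182 CPM in controls (SD, n = 3 each), a ratio of 0.813.

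**Figure D4:**
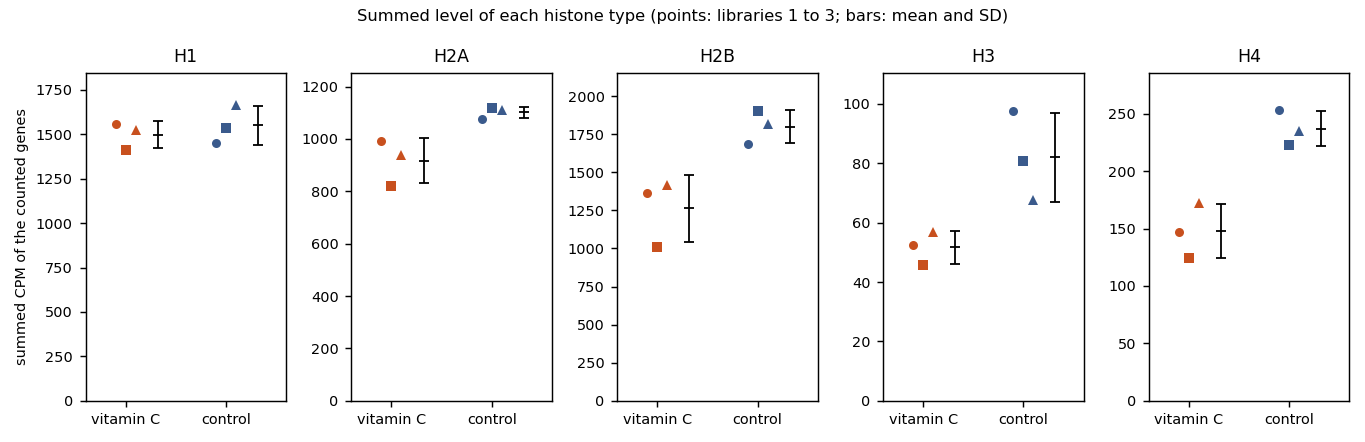
Summed CPM of the counted genes of each histone type (y axes from 0, 1 panel per type) in the vitamin C libraries (left) and control libraries (right), with bars for mean and SD. The groups overlap for H1, and for H2A, H2B, H3 and H4 the vitamin C libraries lie below the controls.

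By position, the members fell into 7 groups separated by more than 200 kb (hg38). The major cluster on chromosome 6, between 26.02 and 26.29 Mb, held 32 members, of which 13 were tested and 8 fell, with a median log2 fold change of -0.47. The chromosome 6 cluster between 27.81 and 27.89 Mb held 16 members, of which 11 were tested and 5 fell (median -0.45). Of 5 tested members between 27.13 and 27.15 Mb, 1 fell (median -0.27), and H2BC1, the tested gene of the pair at 25.72 to 25.73 Mb, fell as given above. On chromosome 1, none of the 5 tested members between 149.78 and 149.89 Mb was called (median -0.28), with 1 of them having groups that did not overlap. H4C16, alone on chromosome 12, was not called (log2 fold change -0.20 ± 0.14 (SE), adjusted p = 0.370). The called genes thus all lay on chromosome 6, but a difference between clusters was not tested.

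Many H2A and H2B genes are arranged head to head and share the sequence between their starts. There were 12 such pairs, with 169 to 250 bases between the starts, and both genes were tested in 7. In none of the 7 were both genes called by edgeR, in 3 a single gene fell, and in 4 neither did. DESeq2 called both H2AC6 (adjusted p = 0.0296) and its partner H2BC4 (adjusted p = 0.0479) lower. It also called H2AC11 lower (adjusted p = 0.0266), but not its partner H2BC11 (adjusted p = 0.249). The calls that follow are those of edgeR. H2AC12 fell while H2BC12 had a log2 fold change of -0.11 (adjusted p = 0.684), and H2AC13 fell while H2BC13 had -0.15 (adjusted p = 0.593). In the pair of H2AC14 and H2BC14 the H2B gene fell, and H2AC14 had -0.23 (adjusted p = 0.170). Whether the genes of a pair differed in their change was not tested, and H2AC13 and H2AC14 are among the genes with few unique windows.

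For some members the annotated exons run on past the stem-loop, as for mRNAs that end at a later poly(A) site. This applied to 17 members, by 375 to 4531 bases, of which 11 were tested. Of these 11, 4 fell, at a median log2 value of -0.63, and of the 25 other tested members 11 fell, with a median of -0.29. These others end at the stem-loop, except H2AC11 and H2AC15, for which no stem-loop of the searched pattern was found. Summed CPM of the longer models was 1119 ± 256 after vitamin C and 1665 ± 129 in controls (SD, n = 3 each). That of all other counted members, H2AC11 and H2AC15 included, was 2759 ± 153 after vitamin C and 3106 ± 76.0 in controls. The longer models include H2BC11, H2BC18 and H2BC21, whose vitamin C libraries spread widely. The counts do not separate reads before the stem-loop from reads after it.

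Of the 29 counted members that were not tested, most had no reads in either group. In the major chromosome 6 cluster, 15 consecutive members from H4C4 to H2BC10 (chr6:26188710-26273412, 84.7 kb) had 2 reads in all 6 libraries together, 1 of H2BC7 in vitamin C 1 and 1 of H4C5 in vitamin C 3. They comprised 4 H2B, 4 H3, 4 H4, 2 H2A genes and H1-3, and the 6 other annotated genes between them also had 0 reads. The neighbours on both sides, H2BC6 and H4C8, were counted in every library at the levels given above. Every window of read length in the exons of these 15 genes occurs once on the primary chromosomes of hg38. Copies on other contigs of hg38 were not counted against uniqueness. A second run of 4 members, H2AC16, H1-5, H3C11 and H4C13 (chr6:27865317-27873534), had 1 read in all, of H3C11 in control 2, and its windows were also 100% unique. No change could be measured for these 19 genes. Whether the annotation and alignment used by the authors could count them was not tested, and 0 reads do not show that the genes were not expressed.

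**Figure D5:**
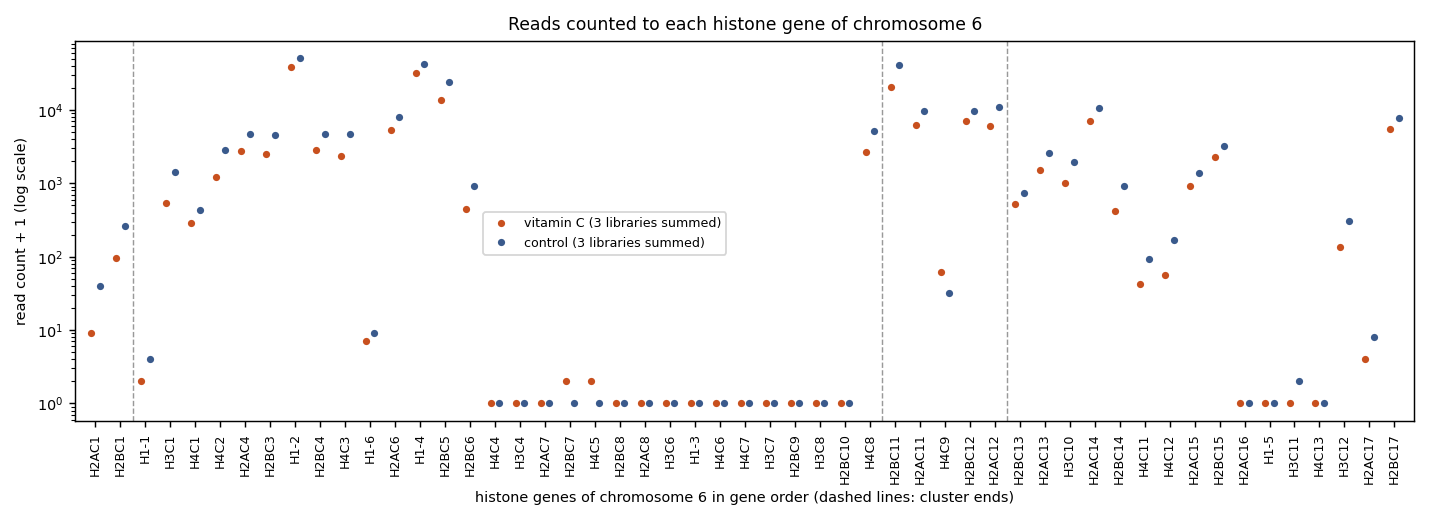
Reads counted to the histone genes of chromosome 6 in gene order (x axis), summed over the 3 vitamin C libraries (left point) and the 3 control libraries (right point), as count + 1 on a log scale, with dashed lines between clusters. The 15 genes from H4C4 to H2BC10 and the 4 from H2AC16 to H4C13 lie at or next to 1, that is at 0 or 1 reads, between neighbours that were counted in both groups.

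The other untested members had few reads, with and without unique sequence. H3C14, H3C15, H4C14 and H4C15 on chromosome 1 had at most 2 reads per library, and none of their windows occurs once in the genome. H2AC17, H2AC25, H2BC26, H1-1 and H1-6 had at most 4 reads per library with windows that were at least 98.9% unique. The annotated span of H2AC17 overlaps that of H3C12 on the same strand. H2AC1, the head-to-head partner of H2BC1 and known as a testis H2A gene, had 1, 2 and 5 reads after vitamin C and 16, 11 and 12 reads in controls. All its vitamin C libraries were below all its control libraries, but it did not pass the filter on low counts. Among the 29 tested members with at least 90% unique windows 13 fell, and among the 7 others 2 fell.

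Genes that make and process histone mRNA were read from a list of 37, of which 35 were tested. Of these, 7 fell (20%) and 0 rose, against 3.48% and 3.60% of all genes, with 11 lower and 5 higher at an unadjusted p under 0.05 and 1 higher in DESeq2, and the median log2 fold change was -0.10. SLBP, the stem-loop-binding protein, had 122, 109 and 114 CPM after vitamin C and 162, 145 and 138 CPM in controls (-0.37 ± 0.08 (SE), adjusted p = 0.0284). ZNF473, a zinc finger protein of the histone pre-mRNA processing complex, had 16.9, 14.5 and 16.2 CPM after vitamin C and 21.9, 20.7 and 24.2 CPM in controls (-0.49 ± 0.10, adjusted p = 0.0251). SNRPF and SNRPE, Sm ring proteins that the U7 particle shares with spliceosomal particles, had log2 fold changes of -0.53 ± 0.13 (adjusted p = 0.0334) and -0.53 ± 0.13 (adjusted p = 0.0379). Other genes of this ring were not called by edgeR: LSM10, which is specific to the U7 particle, had a value of 0.81 ± 0.28 (adjusted p = 0.0976, DESeq2 adjusted p = 0.0376) and SNRPG of 0.48 ± 0.19 (adjusted p = 0.132), while LSM11, SNRPB and SNRPD3 had -0.13, -0.16 and -0.08. The groups did not overlap for SLBP and ZNF473. The other 3 that fell were ERI1, an exonuclease that trims histone mRNA ends, UPF1, a helicase used in histone mRNA decay, and NCBP1, the large cap-binding subunit. The count for this list was 1, 1 and 8 with vitamin C 1, 2 or 3 left out, and 0, 0 and 3 with control 1, 2 or 3 left out.

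Genes of the G1/S transition and DNA replication were mostly not called. Of 52 listed and tested, 4 fell (7.69%) and 0 rose, against 3.48% and 3.60% of all genes, with 15 lower and 1 higher at an unadjusted p under 0.05 (13.1% and 14.3% of all genes) and 6 lower and 0 higher in DESeq2, and the median log2 fold change was -0.14. GINS2, a subunit of the replicative helicase complex, had 16.2, 14.8 and 15.3 CPM after vitamin C and 24.7, 21.8 and 23.0 CPM in controls (-0.58 ± 0.10 (SE), adjusted p = 0.0106). FEN1, which removes flaps during lagging-strand synthesis, averaged 101 ± 4.56 CPM after vitamin C and 128 ± 2.29 CPM in controls (SD, n = 3 each), a log2 difference of -0.34 (edgeR adjusted p = 0.0226). These groups did not overlap. CCND1, encoding cyclin D1, and TK1, encoding thymidine kinase, had log2 fold changes of -0.35 ± 0.08 (adjusted p = 0.0284) and -0.28 ± 0.07 (adjusted p = 0.0457). Of the 52, 39 had a log2 fold change below 0, against 47.6% of all genes. The list's difference from the histone genes was not tested. Its count was 1, 2 and 7 with vitamin C 1, 2 or 3 left out, and 1, 1 and 3 with control 1, 2 or 3 left out.

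Among 10 tested histone variant genes outside the rule that chose the members, 1 fell and 0 rose, with the same shares of all genes. At an unadjusted p under 0.05, 2 were lower and 0 higher, and DESeq2 called 1 lower and 0 higher, with a median log2 fold change of -0.10. The gene that fell was H2AZ1, encoding the variant H2A.Z, with 246, 218 and 238 CPM after vitamin C and 334, 287 and 277 CPM in controls (-0.35 ± 0.09 (SE), adjusted p = 0.0374), and the call was lost when vitamin C 1, vitamin C 2, control 1 or control 2 was left out. Of 24 tested histone chaperone genes, which carry histones to and from DNA, CABIN1 of the HIRA complex rose (4.17%, near the 3.60% of all genes called higher) and 0 fell, with 3 lower and 1 higher at an unadjusted p under 0.05 and 1 lower and 1 higher in DESeq2 (median -0.07). CABIN1 had 36.6, 40.1 and 35.9 CPM after vitamin C and 24.3, 30.1 and 31.0 CPM in controls (0.39 ± 0.10 (SE), adjusted p = 0.0457), and its call was lost without any of the libraries except vitamin C 3, without scaling factors and with a GC and length offset. Of 14 tested cell cycle exit and arrest genes, 0 rose and 0 fell, with 2 higher and 2 lower at an unadjusted p under 0.05, 0 higher and 1 lower in DESeq2, and a median of 0.03. Their most abundant genes, RBL1 and RB1, which encode p107 and the retinoblastoma protein, had log2 fold changes of 0.15 ± 0.07 (SE, adjusted p = 0.172) and -0.01 ± 0.08 (adjusted p = 0.956). The gene that DESeq2 called lower was CDKN1A, encoding the cyclin-dependent kinase inhibitor p21, with 23.6, 23.8 and 19.5 CPM after vitamin C and 36.7, 27.7 and 27.6 CPM in controls (-0.46 ± 0.13, edgeR adjusted p = 0.0519, DESeq2 adjusted p = 0.0148). BTG2, an antiproliferative gene, was low at 1.04, 0.942 and 1.00 CPM after vitamin C and 1.77, 1.73 and 1.84 CPM in controls (-0.83 ± 0.23, adjusted p = 0.0521). The groups did not overlap for either gene.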

How the data were processed

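Whole transcriptome sequencing (paired-end reads, ribosomal RNA depleted) was performed by the authors on 3 vitamin C and 3 control wells. The authors deposited raw read counts per gene and library, made with CASAVA 1.4, Trim Galore and STAR on hg38, which counts uniquely aligned reads only. Ensembl release, STAR version and strand handling: not given in the sources used here. Reads from the opposite strand may therefore have been counted to a gene. The summary lines of the count files, which name no gene, made up 50.6% to 69.7% of read pairs and were left out. They include ambiguous pairs, which overlap more than 1 gene (1.12% to 1.79% of read pairs), so overlapping genes lose such reads. The deposited table of the whole series held the same counts in all 364050 cells and was not used further.

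Counts were scaled by TMM and tested with edgeR 4.0.16 (quasi-likelihood, filterByExpr with a minimum count of 10, Benjamini-Hochberg over 15261 genes, threshold 0.05). A CPM is a count per 1000000 of a library's TMM-scaled total. The SE is the log2 fold change divided by the square root of its F statistic. DESeq2 1.42.0, limma 3.58.1 (voom) and R 4.3.3 served for alternatives: other factors, other filters, a replicate block, GC and length offsets, thinning, and each library left out. On simulated counts edgeR recovered 85.1% of genes changed 1.5-fold and 100% of those changed 2-fold, with 8 false calls among 198. Changes were planted in well-counted genes only, with a common dispersion for all genes. These shares therefore do not carry over to members with few reads or a wide spread. No replicate pair agreed within sampling noise (chi-square over its degrees of freedom 4.99 to 24.3). Gene models were from GENCODE 44, which held 56558 of the 60675 identifiers. Windows of the read length from each member's exons were matched to hg38 on both strands. A window was taken as unique if it occurred once on the primary chromosomes, and copies on other contigs did not count against it.

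Values are given in every library for members called by edgeR, for the most abundant member of each type per kilobase of exon (mean over all libraries), and for H3C1 and H4C3. Of the members that edgeR did not call, H1-4, H2BC18, H2BC21, H4C9, H2AC1, H2AC6, H2AC11 and H2BC4 were added after their values were seen. The same holds for the uncalled partners of called genes. In the other lists up to 4 called genes with the smallest p are named, or the 2 most abundant where none was called, and the remaining called genes of the histone processing list, the other ring genes, CDKN1A, BTG2, FN1 and SNAI2 were named after their values were seen. The members and lists were chosen with earlier results of these data known. A further marker of the immune list is not reported here.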

Additional observations from a re-analysis of the deposited data

How the results depend on the processing

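The 15 members called lower were also called with RLE factors, upper-quartile factors, no factors, the GC and length offset and the replicate block, and the median log2 fold change stayed negative under every alternative. Leaving out each library in turn gave 3 to 19 members called lower (3 to 17 in both tools), 0 higher, a median of -0.49 to -0.37, and log2 ratios of the summed types of -0.10 to 0.01 for H1, -0.32 to -0.19 for H2A, -0.60 to -0.37 for H2B, -0.79 to -0.52 for H3 and -0.80 to -0.57 for H4. Whether the replicate numbers pair the samples could not be decided. Deviations from the group mean correlated at -0.016, -0.0556 and -0.0452 between same-numbered libraries of the 2 groups. Between differently numbered libraries the correlations ran from -0.0482 to 0.107. With 3 libraries per group, centred on their own mean, such values cannot exclude pairing. With the number as a replicate block, 17 members were lower, H2BC18 and H2BC21 being added. The block gave 4 processing factors lower (not ERI1, NCBP1 or SNRPE), 3 G1/S genes lower (not TK1), 0 histone variants lower, 0 chaperones higher and 1 cell cycle exit gene lower (CDKN1A), the last 2 values also with the block and the GC and length offset. That offset alone gave 0 chaperones higher and 2 exit genes lower, and no factors gave 0 chaperones higher. Without a filter 22 members were lower and 1 was higher (H4C9), with 2 processing factors higher, 2 variants lower, 1 chaperone lower, 11 G1/S genes lower, 1 G1/S gene higher and 1 exit gene lower. DESeq2 gave 1 processing factor higher, 1 chaperone lower and 1 exit gene lower. In thinned libraries H4C12 was no longer called. Leaving out a library gave 0 to 8 processing factors lower and 0 to 3 higher, 0 to 2 variants lower and 0 to 1 higher, 0 to 1 chaperones lower and 0 to 1 higher, and 1 to 7 G1/S genes lower and 0 to 2 higher. Limiting the members to those with at least 90% unique windows, chosen after seeing the data, left 13 lower. The causes were not tested. Members under about 1 CPM rest on few reads, and for the members without reads nothing can be said of a change.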
